A study of Mus musculus with 6 samples.

Results

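The transcripts described here belong to 9 mouse genes of alternative activation and arginine metabolism, measured in tumor-associated macrophages (TAMs). They were chosen by name, with earlier results of the same comparison known, as genes commonly read as signs of macrophage activation state, out of 39179 genes in the count table. Of the 9 symbols, 8 stand in the table and Chil3 appears under its older symbol Chi3l3, so that it was matched by its Ensembl identifier. Because the choice was made with these values in view, the levels and fold changes of the 9 genes are given as a description, with no p, and nothing is read from whether one of them was called.

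TAMs were sorted from subcutaneous tumors grown in C57BL/6 hosts aged 8 weeks, from cells of a Braf-mutant, p16INK4a-deficient melanoma line. In the Ptgs-competent group the injected cells were wild type, and in the Ptgs-deficient group they lacked both Ptgs1 and Ptgs2, the genes of the prostaglandin-making cyclooxygenases. The macrophages themselves were of host genotype in both groups. Each group had 3 libraries, each a pool of tumors and sorted as live CD45+ NK1.1- Ly6G- CD11b+ F4/80+ cells with no or little Ly6C. Within these 6 libraries the deletion is present in 1 edited line, so that here an effect of the cyclooxygenases and one of the edited line cannot be told apart.

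Macrophages that meet IL-4 or IL-13 signal through a receptor built on the Il4ra chain and the transcription factor STAT6, and mouse macrophages then make the resistin-like protein encoded by Retnla and the chitinase-like protein encoded by Chil3. Macrophages that meet interferon-gamma and microbial products make the inducible nitric oxide synthase Nos2 instead. Arginine can be turned into ornithine, from which ornithine decarboxylase (Odc1) starts polyamine synthesis, or by nitric oxide synthase into nitric oxide and citrulline, which argininosuccinate synthase (Ass1) returns toward arginine. Slc7a2 carries arginine into the cell.

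Depth ranged from 4431184 to 8760679 counts a library, in which 7794 to 10714 genes were detected. Libraries differed widely. The Pearson correlation of log2 CPM (TMM-scaled read counts relative to library size) was 0.407 to 0.720 over all pairs of libraries, of the same or of different groups. It was taken over genes, which are not independent replicates. Of the tested genes that reached 100 counts in a Ptgs-competent library, 2002 of 7465 (26.8%) were at 0 in another library of that group, against 1058 of 7427 (14.2%) in the Ptgs-deficient group. A zero in a single library therefore does not show absence. A count of 0 allows up to 3 counts, or 0.357 to 0.647 CPM depending on the library, for counting error only. Ptgs-competent replicate 3 stood apart: the 10 macrophage markers, among them Csf1r and Cd68, took 0.597% of its counts, against 1.36% and 1.60% in the other Ptgs-competent libraries and 1.70% to 2.0% with Ptgs-deficient tumors. As these are bulk samples, fewer cells of a type and less RNA per cell cannot be told apart.

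Of the 9 genes, 7 had an entry in the RefSeq promoter table of GRCm38.p6 (250 bases before to 50 bases after the RefSeq start), all but Nos2 and Slc7a2. The gene spans given below are from GENCODE, whose start lies 58 bases upstream of the RefSeq start for Retnla, 13 bases downstream of it for Retnlg and at the same base for Ear2. The promoters of Retnla, Retnlg and Ear2 are printed because these are the genes with an entry whose level was higher in every Ptgs-deficient library than in any Ptgs-competent library. All 3 lie on the plus strand, at chr16:48842359-48842658, chr16:48872358-48872657 and chr14:44102404-44102703. Capitals mark matches to the letters TTCNNNNGAA, the spacing bound by STAT6, and TTGCNNAA, a C/EBP-type sequence.
Retnla: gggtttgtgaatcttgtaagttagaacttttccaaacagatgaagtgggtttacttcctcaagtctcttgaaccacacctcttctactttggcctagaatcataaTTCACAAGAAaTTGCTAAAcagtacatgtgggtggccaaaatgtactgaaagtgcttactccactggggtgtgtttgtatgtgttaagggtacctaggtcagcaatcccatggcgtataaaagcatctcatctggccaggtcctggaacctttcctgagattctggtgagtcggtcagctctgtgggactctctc
Retnlg: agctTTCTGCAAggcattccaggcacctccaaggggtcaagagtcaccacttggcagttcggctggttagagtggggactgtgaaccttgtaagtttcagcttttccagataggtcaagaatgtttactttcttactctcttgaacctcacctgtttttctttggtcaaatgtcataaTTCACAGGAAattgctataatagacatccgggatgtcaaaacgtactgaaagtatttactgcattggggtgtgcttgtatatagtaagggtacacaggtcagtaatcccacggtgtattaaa
Ear2: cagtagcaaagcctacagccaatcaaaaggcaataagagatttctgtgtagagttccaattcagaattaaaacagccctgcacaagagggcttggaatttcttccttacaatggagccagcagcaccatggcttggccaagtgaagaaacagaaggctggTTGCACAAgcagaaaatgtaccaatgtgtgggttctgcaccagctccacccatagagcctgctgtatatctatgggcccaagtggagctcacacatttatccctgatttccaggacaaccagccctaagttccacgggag

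Both strands were searched, and the capital stretches do not overlap each other. The STAT6-type letters occurred in Retnla as TTCACAAGAA from -145 to -136 relative to the RefSeq start and in Retnlg as TTCACAGGAA from -72 to -63, and in none of the other 5 promoters. Counted from the 5′ end of the Retnla match, the pair differed by A7G. Retnla and Retnlg lie 28159 bases apart on chromosome 16, and 175 of 220 aligned promoter bases (79.5%) were identical with 3 gap bases, so that the shared match is not an independent observation. Among all 32544 promoters of the table, 2271 (6.98%) held these letters. C/EBP-type letters occurred in Retnla, Retnlg and Ear2, and in 10.8% of all promoters. The CREB core TGACG occurred in Odc1 (20.9% of all promoters), and the interferon-stimulated letters GAAANNGAAA in none of the 7 (3.45%). These are matches of letters, and no binding was measured.

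The 9 genes did not move as one group. Retnla, Ear2, Retnlg and Slc7a2 (4 of the 7 tested) were higher in every Ptgs-deficient library than in any Ptgs-competent library, Il4ra was lower in every one, and the groups overlapped for Chil3 and Odc1. Over all 8793 tested genes, 11% were higher without overlap and 8.01% lower without overlap. Nos2 and Ass1 did not pass the filter on low counts. The edgeR quasi-likelihood test, with calls made at an adjusted p up to 0.05 and at least 1.5 on the log2 fold scale, called 1 of the 7, Retnla, and 0.216% of all tested genes. At an unadjusted p under 0.05 the share over all tested genes was 8.83%. The comparison itself guided the choice of these genes, so that nothing is read from their counts against those shares.

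**Figure D1:**
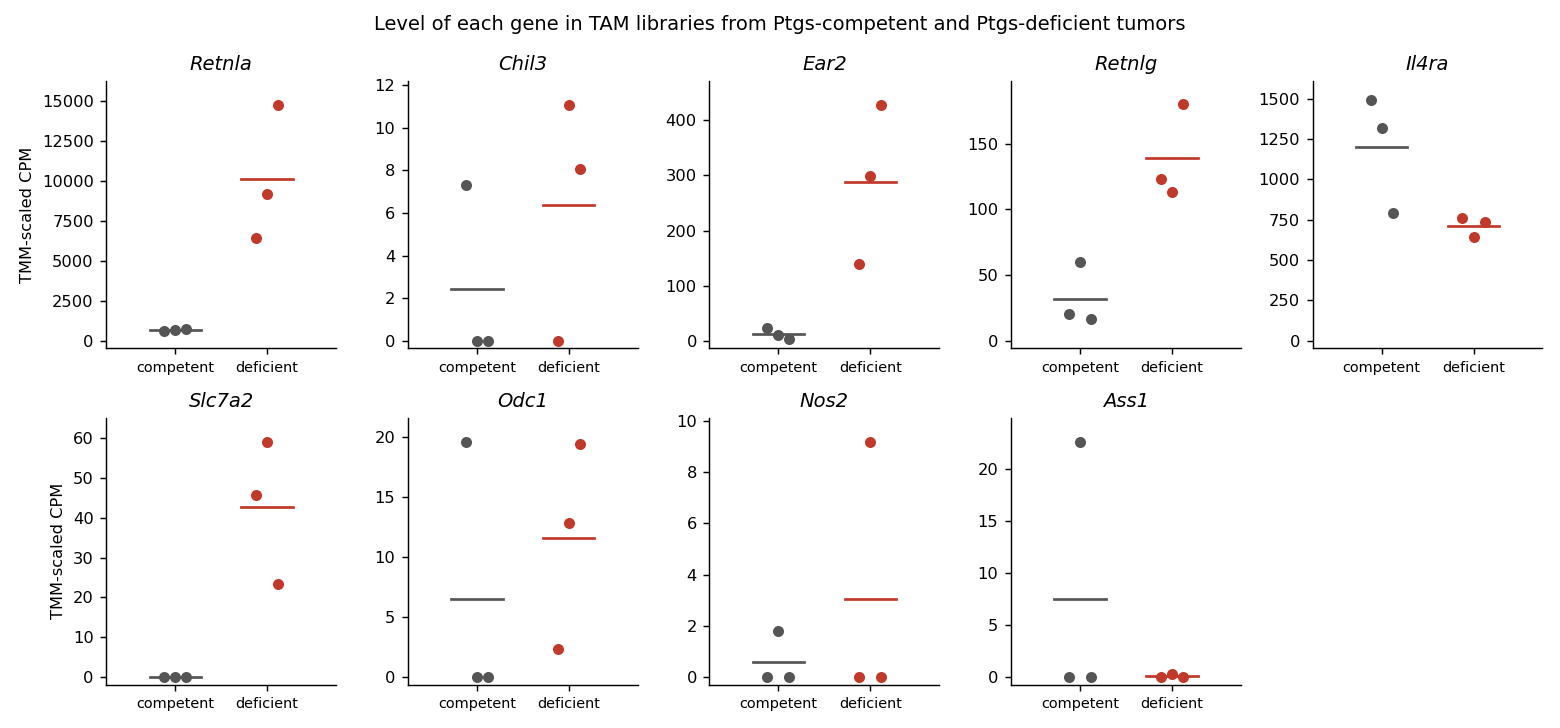
TMM-scaled CPM (vertical axis, linear, its own scale in each panel) of the 9 genes in the 3 Ptgs-competent (gray) and 3 Ptgs-deficient (red) TAM libraries, with points for libraries in replicate order and a bar for the group mean. Retnla reached 14796 CPM in a Ptgs-deficient library, every Ptgs-deficient value of Il4ra lay below every Ptgs-competent one, and Chil3, Odc1, Nos2 and Ass1 were at 0 in several libraries.

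Among the secreted effectors, Retnla (ENSMUSG00000061100, chr16:48842551-48844461, plus strand) was by far the most abundant. Its level was 636, 676 and 713 CPM with Ptgs-competent tumors and 6422, 9203 and 14796 CPM with Ptgs-deficient tumors. The lowest Ptgs-deficient library lay far above the highest Ptgs-competent one. The means were 675 ± 38.5 and 10141 ± 4265 CPM (SD over 3 libraries in each group), and the log2 fold change was 3.91 ± 0.41 (SE). Spread was uneven: the coefficient of variation was 5.71% in the Ptgs-competent and 42.1% in the Ptgs-deficient group. Ranked by count, Retnla was gene 221, 186 and 161 of the Ptgs-competent libraries and gene 10, 6 and 3 of the Ptgs-deficient libraries, where it took 0.670% to 1.40% of all counts. The call was lost without Ptgs-competent replicate 1, where the log2 fold change was 3.87 and no gene at all was called by the edgeR quasi-likelihood test, although 1231 reached an unadjusted p under 0.05.

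Retnlg (ENSMUSG00000022651, chr16:48872621-48874496, plus strand), the neighbor and paralog of Retnla, encodes another resistin-like protein and is known as a neutrophil transcript. It measured 20.2, 59.9 and 16.2 CPM with Ptgs-competent tumors and 123, 113.6 and 180.2 CPM with Ptgs-deficient tumors. The groups did not overlap, and the log2 fold change was 2.11 ± 0.66. Retnlg was not called, and its log2 fold change was 2.93 without Ptgs-competent replicate 2, which held the most Retnlg of its group. The 11 neutrophil markers summed to 604 to 665 CPM with Ptgs-competent and 272 to 409 CPM with Ptgs-deficient tumors, most of it S100a8 and S100a9. Of the 5 tested, 1 (Csf3r) had a higher and 4 a lower fitted value, 3 overlapped between groups, 1 reached an unadjusted p under 0.05 and none was called by the edgeR quasi-likelihood test, the likelihood ratio test or DESeq2, and Ly6g, Elane and Mpo were at 0 in every library. The remaining resistin family genes, Retn and Retnlb, were at 0 throughout. None of the 50-base stretches in the last 500 bases of Retnla or Retnlg transcripts occurred in another gene.

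Ear2 (ENSMUSG00000072596, chr14:44102654-44103534, plus strand) encodes a secreted ribonuclease of the eosinophil-associated family. Of the 4 genes among the 9 with counts in every library, it had the largest fitted fold change. Its level was 22.3, 9.68 and 2.59 CPM with Ptgs-competent tumors, from 140, 59 and 12 counts, and 139.8, 298 and 428 CPM with Ptgs-deficient tumors. The groups stood well apart, with a log2 fold change of 4.64 ± 0.80. It was 5.54 without Ptgs-competent replicate 1, which held the most Ear2 of its group. Ear2 was not called here but was called without Ptgs-competent replicate 3. Of the stretches at its transcript end, 38.1% also occur in Ear1, Ear6, Ear10 or the pseudogenes Ear-ps2 and Ear-ps9, and how reads with several alignments were handled is not given, so that the Ear2 count is uncertain. In the same libraries Ear1 and Ear10 were at 0, Ear6 had 12 counts in Ptgs-deficient replicate 1, and Ear11 had 105, 27 and 51 counts in the Ptgs-deficient and 0 in every Ptgs-competent library. The eosinophil markers Prg2, Epx, Prg3 and Il5ra were at 0 in every library, and the 6 eosinophil markers summed to 0 to 14.9 CPM with Ptgs-competent and 2.74 to 49.6 CPM with Ptgs-deficient tumors.

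Chil3 (ENSMUSG00000040809, chr3:106147554-106167564, minus strand), a textbook transcript of alternatively activated mouse macrophages, was scarce. Its counts were 46, 0 and 0 with Ptgs-competent tumors and 0, 93 and 39 with Ptgs-deficient tumors. Both groups held a library at 0, and the log2 fold change of 1.38 ± 2.87 had an error larger than itself. Without Ptgs-competent replicate 1, the only library of its group with Chil3 counts, the Ptgs-deficient mean was at least 11.2-fold higher against a floor of 3 counts per library. Leaving out that library fixes the group at 0, so that this fold is no support for a difference. Chil4, which shares 3′ sequence with Chil3, was at 0 in every library, as were Chil1, Chil5, Chil6, Chia1 and Chit1. Retnla and Chil3, often read together, were thus far apart in level in Ptgs-deficient libraries, at 6422 to 14796 and 0 to 11.1 CPM.

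Il4ra (ENSMUSG00000030748, chr7:125552120-125579474, plus strand), the ligand-binding chain of the IL-4 and IL-13 receptors, was the only tested gene of the 9 with a lower fitted level. It measured 1491, 1319 and 789.6 CPM with Ptgs-competent tumors and 762, 639.9 and 734 CPM with Ptgs-deficient tumors. The groups did not overlap, but the gap was narrow, between 789.6 CPM in Ptgs-competent replicate 3 and 762 CPM in Ptgs-deficient replicate 1. The log2 fold change was -0.75 ± 0.32, and -0.93 without Ptgs-competent replicate 3. An antisense gene, Gm44876, overlaps Il4ra, and whether the counting used strand is not given. Il4ra had the highest CPM of the 9 genes in every Ptgs-competent library, with Retnla next. In every Ptgs-deficient library the order was Retnla, Il4ra, Ear2, Retnlg and Slc7a2. CPM orders genes here without a length term, since 3′ end reads do not scale with transcript length.

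Slc7a2 (ENSMUSG00000031596, chr8:40862396-40922308, plus strand) encodes the cationic amino acid transporter CAT2. It had 0 counts in each Ptgs-competent library and 250, 495 and 113 counts with Ptgs-deficient tumors, or 45.6, 58.9 and 23.4 CPM. Against a floor of 3 counts per library, the mean of the Ptgs-deficient group was at least 79.1-fold higher. Slc7a2 passed the filter on low counts through the Ptgs-deficient libraries alone, so that its separation is no support for a difference. It was not called, and of the genes that reach 100 counts in some library many are at 0 in another, as given above. A transcript of the lincRNA Gm26584 overlaps Slc7a2 on the other strand.

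Odc1 and the genes of the nitric oxide route were scarce. Odc1 (ENSMUSG00000011179, chr12:17544794-17551505, plus strand) had 123, 0 and 0 counts with Ptgs-competent and 13, 108 and 94 with Ptgs-deficient tumors. Its groups overlapped, with a log2 fold change of 0.82 ± 2.68. Without Ptgs-competent replicate 1, which held all the Odc1 counts of its group, the Ptgs-deficient mean was at least 20.3-fold higher against the same floor. As for Chil3, leaving out that library fixes the group at 0, and the fold is no support for a difference. Nos2 (ENSMUSG00000020826, chr11:78920787-78960254, plus strand) was found in 1 library of each group, with 11 counts in Ptgs-competent replicate 2 and 77 in Ptgs-deficient replicate 2. Ass1 (ENSMUSG00000076441, chr2:31470207-31520672, plus strand) was found in the same libraries, with 138 and 3 counts. Neither gene passed the filter, and no comparison is made of them. Of the other nitric oxide synthases, Nos1 was at 0 in every library and Nos3 had 3 counts in Ptgs-competent replicate 3. Shared 3′ sequence makes the counts of Ass1 (28.8% of stretches, with Gm5424) and Odc1 (17.7%, with 5 other genes) uncertain.

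Ratios of counts within a library need no scaling between libraries. Retnla counts per Il4ra count were 0.426, 0.512 and 0.902 with Ptgs-competent tumors and 8.43, 14.4 and 20.2 with Ptgs-deficient tumors. The order of these genes thus turned in every library, from fewer Retnla than Il4ra counts to a large excess of Retnla. Retnla per Ear2 overlapped, at 28.5, 69.8 and 275.5 against 45.9, 30.9 and 34.6.

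Per 100 counts of the 10 macrophage markers, Retnla had 4.43, 4.21 and 12.5 counts with Ptgs-competent and 35.0, 52.0 and 69.9 with Ptgs-deficient tumors. Il4ra had 10.4, 8.21 and 13.8 against 4.16, 3.62 and 3.47, a wider gap than in CPM. Scaling by these markers moved the median log2 fold change of all tested genes from 0.02 to -0.87. The wider gap is therefore not read as a larger change of Il4ra. Ear2 (0.0454 to 0.155 against 0.762 to 2.02), Retnlg (0.141 to 0.373 against 0.642 to 0.852) and Slc7a2 (0 against 0.111 to 0.333) stayed without overlap. Of the 10 markers, fitted values were higher for 8 and lower for 2, none was called by the edgeR quasi-likelihood test, the likelihood ratio test or DESeq2, and 4 reached an unadjusted p under 0.05. Most of the marker counts were Lyz2 and C1qa. Lyz2 was among the 5 that overlapped between groups, and C1qa was higher without overlap.

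**Figure D2:**
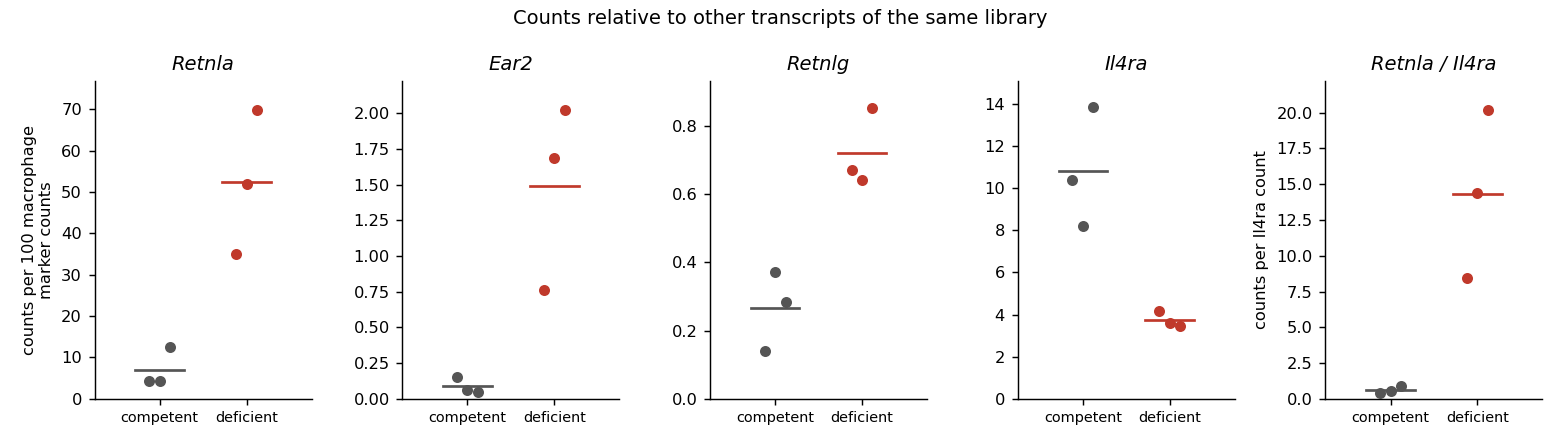
Counts of Retnla, Ear2, Retnlg and Il4ra per 100 counts of 10 macrophage markers, and Retnla counts per Il4ra count (vertical axes, linear from 0), in 3 Ptgs-competent (gray) and 3 Ptgs-deficient (red) libraries, with a bar at each mean. Retnla, Ear2 and Retnlg were higher and Il4ra lower without overlap on this scale, and Retnla per Il4ra was at least 8.43 in every Ptgs-deficient library. Scaling by the markers moved the median log2 fold change of all tested genes to -0.87.

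Markers of other macrophage and myeloid states were measured beside these genes. The 8 tissue macrophage markers summed to 117 to 375 CPM with Ptgs-competent and 1102 to 1476 CPM with Ptgs-deficient tumors, with fitted values higher for all 6 tested. The edgeR quasi-likelihood test called 1 of them, Cd5l, while all 6 reached an unadjusted p under 0.05 and 5 were called by the likelihood ratio test and 5 by DESeq2. Over all 8793 tested genes, 8.83% reached that p, and the likelihood ratio test and DESeq2 called 241 and 328. Cd5l had 1, 0 and 3 counts against 974, 1257 and 1545, and Cd5l, Timd4 and Siglec1 (3 of the 6) passed the filter on low counts through the Ptgs-deficient libraries alone. Their separation, and the call of Cd5l, is no support for a difference. Lyve1, Folr2 and Cd163, with counts in every library, had log2 fold changes of 3.81, 2.48 and 1.44 and were not called by the edgeR quasi-likelihood test. The 5 monocyte markers summed to 853 to 2424 CPM and to 4540.1 to 5187 CPM, most of it F13a1 (707 to 1961 and 3686 to 4012 CPM). Of the 4 tested, 3 had a higher fitted value and 1, Vcan, a lower one (log2 fold change -3.05), with none called by the edgeR quasi-likelihood test, 3 at an unadjusted p under 0.05, 2 called by the likelihood ratio test and 1 by DESeq2. Vcan had 0, 144 and 0 counts in the Ptgs-deficient libraries, and its log2 fold change was as low as -11.0 among the alternatives. Fibroblast markers (6, Lum at 0) summed to 144 to 349 CPM and to 15.9 to 51.2 CPM. Of the 7 melanoma markers, Pmel, Mlana, Tyr, Tyrp1, Dct and Sox10 were at 0 in every library. The list summed to 0 to 1.91 CPM and to 10.6 to 44.3 CPM, all of it Mitf (12, 0 and 3 against 58, 372 and 88 counts). Endothelial markers summed to 92.9 to 197 and 22.3 to 65.1 CPM, mast cell and basophil markers to 0 and 0 to 28.1 CPM, dendritic cell markers to 0 to 14.5 and 0 to 8.34 CPM, and NK and T cell markers to 1.29 to 2.13 and 0.414 to 28.3 CPM. The gates on CD45, NK1.1 and Ly6G were directed against melanoma cells, fibroblasts, endothelial cells, NK cells and neutrophils. Counts of fibroblast, endothelial and neutrophil markers remained, as given above, and no gate was set to exclude eosinophils. The part of these cell types in the values of Retnla, Retnlg, Ear2 and Slc7a2 was not tested.

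The levels were next set beside a list of 41 genes of IL-4 and IL-13 signaling and response, written without the 9 genes but with earlier results of these data known. Of 31 tested, 3 were called higher by the edgeR quasi-likelihood test (Clec10a, Batf3 and Fn1) and none lower. At an unadjusted p under 0.05, 13 were higher and 1 lower, 45.2% of those tested against 8.83% of all tested genes. The likelihood ratio test and DESeq2 each called 9, against 241 and 328 of all 8793. Among the 13 were Alox15, Batf3, Ccl17, Ccl24, Ear11 and Irf4. These 6 passed the filter on low counts through the Ptgs-deficient libraries alone, so that their separation is no support for a difference. Earlier results guided the list, so that nothing is read from these shares. Fitted values were higher for 23 and lower for 8, with a median log2 fold change of 0.92 against 0.02 over all tested genes. Without the genes that held at most 3 counts in every library of a group, 17 were higher and 8 lower, with a median of 0.62 against 0.01. Clec10a, a galactose-binding lectin, rose from 111 ± 35.6 to 1699 ± 474 CPM, a log2 fold change of 3.93 ± 0.40 (adjusted p = 0.00453). Batf3, a transcription factor, had 0, 0 and 1 counts with Ptgs-competent and 586, 634 and 424 with Ptgs-deficient tumors, at least 167-fold higher against 3 counts per library (adjusted p = 0.0324), and passed the filter on low counts through the Ptgs-deficient libraries alone, as did 5 further genes of the list. Fn1, fibronectin, rose from 125 ± 39.5 to 645 ± 66.6 CPM (log2 fold change 2.37 ± 0.36, adjusted p = 0.0350). Leaving out single libraries kept the call of Clec10a in 5 of 6 fits, and of Batf3 and Fn1 in 1 each (without Ptgs-competent replicate 3).

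None of the other tested genes of this list was called by the edgeR quasi-likelihood test, but Klf4, Mgl2, Egr2, Ccl17, Ccl24 and Irf4 were called by both the likelihood ratio test and DESeq2, and Klf4 and Mgl2 also with the replicate block. Ccl17, Ccl24 and Irf4 passed the filter on low counts through the Ptgs-deficient libraries alone, so that their calls are no support for a difference. Klf4, a transcription factor linked to STAT6, had a log2 fold change of 1.89 ± 0.36 (adjusted p = 0.0773), and Mgl2, the paralog of Clec10a, one of 3.16 ± 0.61 (adjusted p = 0.0821). Mgl2 was at 4.09 and was called without Ptgs-competent replicate 2. Egr2, another transcription factor of the response, had one of 2.32 ± 0.46 (adjusted p = 0.0924). None of the 7 tested receptor and signaling genes separated the groups. These include Il2rg, Jak1, Jak3, Stat6 and Irs2. The cytokines Il4 and Il13 were at 0 in every library.

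The list of 33 classical activation genes had a median of the same sign as the first. Of 23 tested, none was called by the edgeR quasi-likelihood test. At an unadjusted p under 0.05 there were 7, all higher, or 30.4% against 8.83% of all tested genes. The edgeR likelihood ratio test and DESeq2 each called 3, against 241 and 328 of all 8793. Cd38 was among the 7 and among the 3. Nothing is read from these shares either, since earlier results were known. Fitted values were higher for 18 and lower for 5, with a median log2 fold change of 0.93 against 0.02 over all tested genes. Without genes with at most 3 counts in every library of a group (1 in this list, Cd38), it was 0.79 against 0.01. Cybb, a subunit of the phagocyte oxidase, had a log2 fold change of 2.23 ± 0.41 (adjusted p = 0.0762). The peptide transporter Tap1 had one of 2.01 ± 0.43 (adjusted p = 0.112), and the immunoproteasome subunit Psmb9 one of 1.88 ± 0.70 (adjusted p = 0.384). Cd38, an ectoenzyme, had 0 counts in each Ptgs-competent library and 248, 240 and 180 with Ptgs-deficient tumors, at least 68.7-fold higher (adjusted p = 0.192), and it too passed the filter through the Ptgs-deficient libraries alone. H2-Ab1, an MHC class II chain, had a log2 fold change of 1.37 ± 0.51 (adjusted p = 0.384), with 0.99 without Ptgs-competent replicate 3 and 2.0 without Ptgs-competent replicate 1. Irf1, whose groups overlapped, had one of 1.46 ± 0.56 (adjusted p = 0.412), and of 2.26 without Ptgs-competent replicate 2. Of the 7 cytokines of the list, Il12a, Il12b and Il23a were at 0 in every library, and Ifng had at most 2 counts in a library. Il6 had 0 counts in each Ptgs-competent library and 39, 246 and 8 with Ptgs-deficient tumors, and did not pass the filter. The 2 tested, Tnf and Il1b, had lower fitted values (log2 fold changes of -0.46 and -0.11), and both overlapped between groups. Setting bounded genes at their bounds left the medians of both lists as given.

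**Figure D3:**
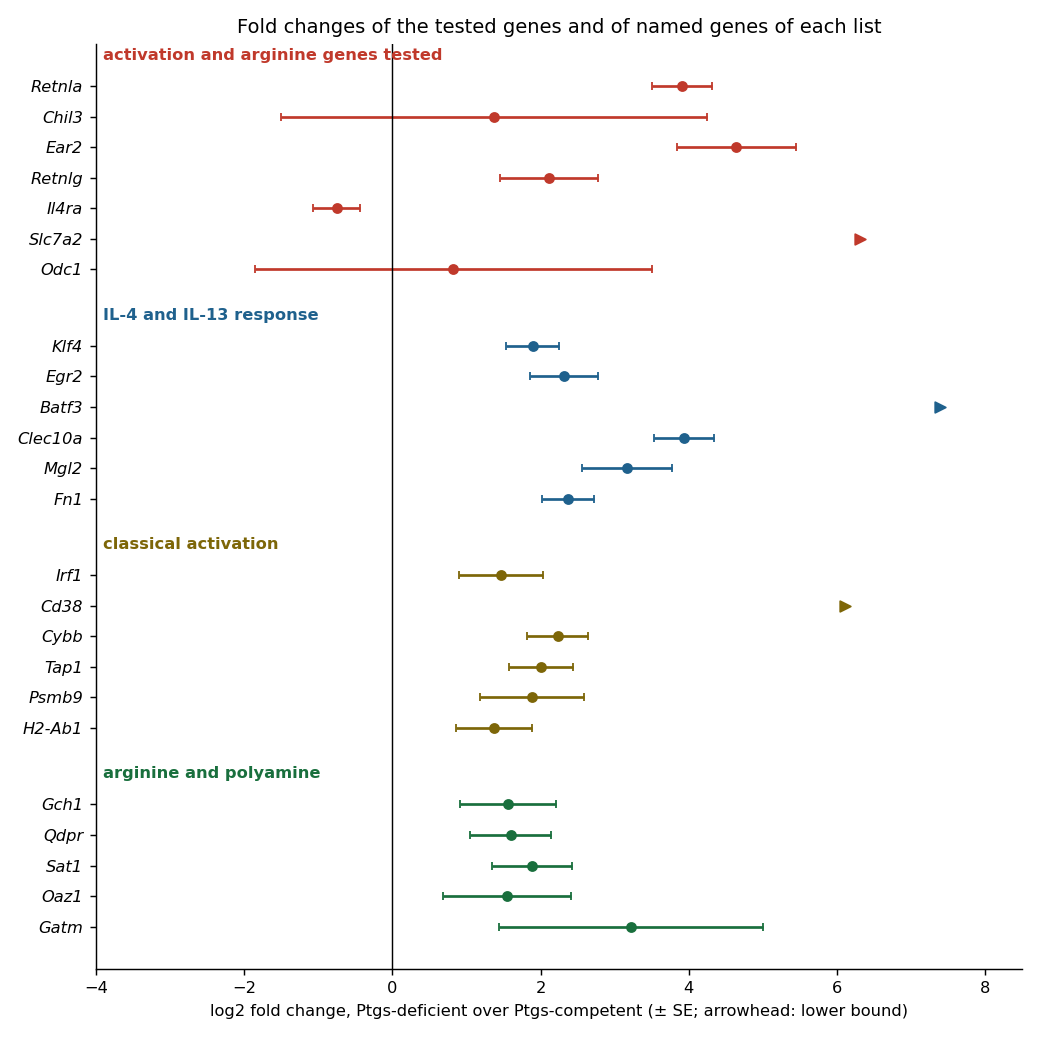
Log2 fold change (Ptgs-deficient over Ptgs-competent, horizontal axis) with its SE for the 7 tested genes and for the named genes of 3 lists, from 3 libraries a group, with an arrowhead for a lower bound. The 6 named genes of the IL-4 and IL-13 list and the 6 of the classical list lie above 0, Il4ra lies below it, and Chil3 and Odc1 have errors that cross it.

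In the remaining arginine and polyamine pathway, no gene of 43 was called (26 tested by the edgeR quasi-likelihood test, 9 at 0 in every library). Of the 26, 3 (11.5%, near the 8.83% over all tested genes) reached an unadjusted p under 0.05, 0 were called by the likelihood ratio test and 1, Sat1, by DESeq2. Fitted values were higher for 15 and lower for 11, with a median log2 fold change of 0.37. The 3 were Sat1, which acetylates polyamines for export and breakdown (40.5 ± 11.3 to 149 ± 50.4 CPM, log2 fold change 1.88 ± 0.54, adjusted p = 0.246), and the tetrahydrobiopterin genes Qdpr (1.60 ± 0.55, adjusted p = 0.367) and Gch1 (1.56 ± 0.65, adjusted p = 0.485, and 2.20 without Ptgs-competent replicate 1). Tetrahydrobiopterin is the cofactor of nitric oxide synthases. Gatm, which uses arginine for creatine synthesis, had 5.61 ± 8.25 and 52.2 ± 24.7 CPM (adjusted p = 0.779). Its log2 fold change was 3.22, and 5.89 without Ptgs-competent replicate 3.

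Oaz1, the antizyme that inhibits ornithine decarboxylase, overlapped between groups, with a log2 fold change of 1.55 ± 0.87 (adjusted p = 0.796), and of 0.81 without Ptgs-deficient replicate 2. Among arginine transporters, Slc7a1 was measured at 6.22, 77.5 and 19.6 CPM with Ptgs-competent and 12.2, 33.6 and 2.48 CPM with Ptgs-deficient tumors, and Slc7a7 at 44.1 to 108 and 29.4 to 71.2 CPM. Both overlapped. These transporters fall outside the naming rule and were named after their values were seen, as the other carriers of arginine. Of the 5 genes listed for polyamine synthesis and tested, none separated the groups.

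**Figure D4:**
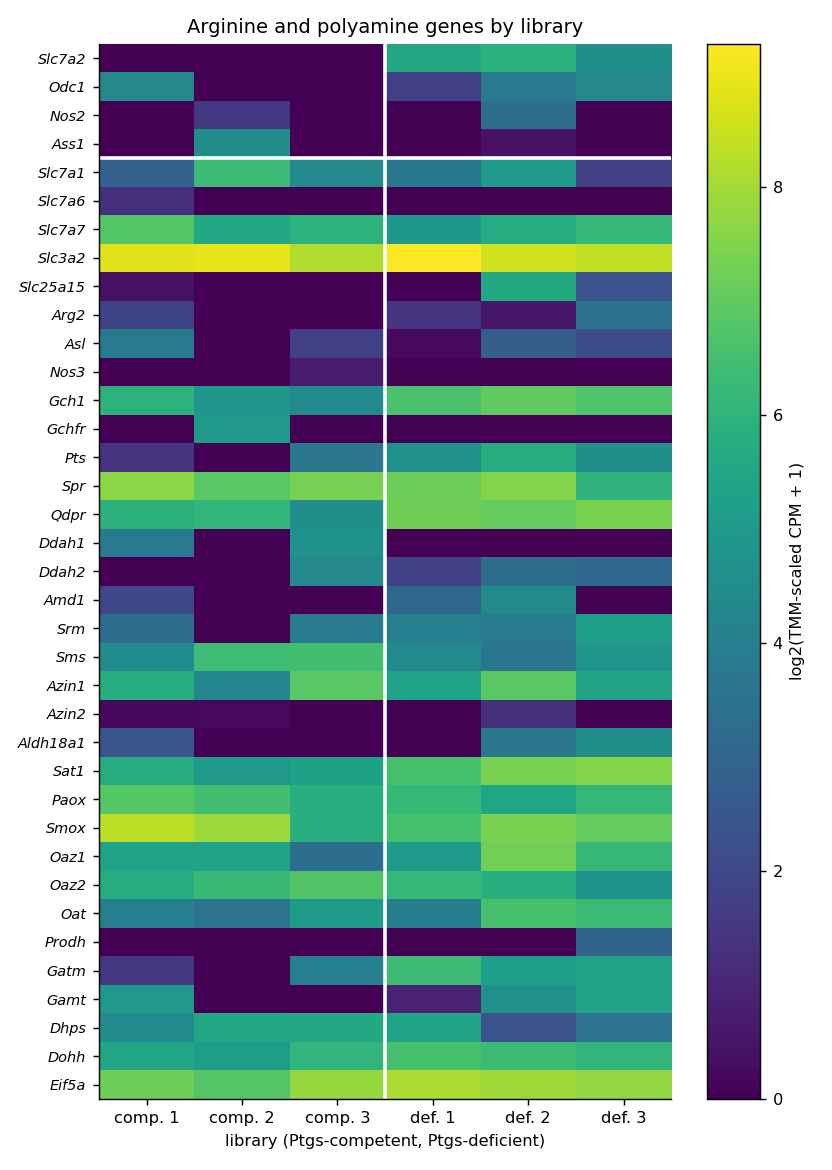
Log2(TMM-scaled CPM + 1) of the arginine genes among the 9 (above the white line) and of 33 pathway genes with a count (below it), 1 row a gene and 1 column a library. Slc7a2 is at 0 in the 3 Ptgs-competent libraries and present in the 3 Ptgs-deficient libraries, and Odc1, Nos2 and Ass1 are at 0 in several.

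The genes whose pattern over the 6 libraries was most like that of Retnla were Clec10a, C4b, Plac8, Cmtm3 and Sepp1, with a root mean square difference of 0.309, 0.418, 0.567, 0.581 and 0.667 in log2(CPM + 1) after centering each gene, among 2984 genes with a mean of at least 50 CPM. Clec10a measured 72.4, 119.5 and 142 CPM against 1154.5, 1932 and 2012 CPM. These distances are descriptions over 6 libraries that share depth and group.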

How the data were processed

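RNA from sorted TAMs was sequenced from the 3′ end (QuantSeq FWD, from picogram amounts of RNA, no molecular identifiers stated), and PCR copies may have been counted as molecules. The authors trimmed reads with BBDUK, fqtrim and cutadapt, aligned them with STAR to GRCm38 and counted them per Ensembl gene with featureCounts; they deposited raw counts of 6 libraries. Tool versions, the use of strand and the treatment of multiply aligned reads are not given in the sources used here.

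The counts were tested in edgeR 4.0.16 (R 4.3.3): filterByExpr (minimum count 10, total 15), TMM scaling, the two-sided quasi-likelihood test over 3 against 3 libraries and Benjamini-Hochberg adjustment over 8793 genes. Calls needed an adjusted p up to 0.05 and a change of at least 1.5 on the log2 scale, the thresholds of the study, which names a generalized linear model but not the likelihood ratio or quasi-likelihood form. Standard errors were derived from the F statistic (fold change on the log2 scale over the root of F). Levels are TMM-scaled CPM. Where a group held at most 3 counts per library, a fold is a lower bound against that floor. Alternatives were RLE size factors, no filter, the likelihood ratio test, DESeq2 1.42.0, a replicate block, and leaving out each library. The labels give no batch, and p-values measure the spread between these pools.

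Genes were matched by Ensembl identifier, and positions and neighbors came from GENCODE M21 (GRCm38). Promoters were aligned with Biopython 1.88. The genes, the lists and the markers were chosen with earlier results of these data known. Named genes were the 9 described, their paralogs with a count, in each list every called gene and those of smallest p up to 6, and the 5 genes most like Retnla (log2 CPM with a pseudocount of 1). A few further items of the set and lists are not reported here. No other count columns were used.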

Additional observations from a re-analysis of the deposited data

How the results depend on the processing

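The fitted directions of the 7 tested of the 9 genes, and of the list genes named by the rule, did not reverse under any alternative. Slc7a1, Il2rg, Jak3, Stat6, Il1b and the markers Csf1r and Lyz2, named outside it, changed sign under some. Chil3 was at 6.30 and Odc1 at 6.92 on the log2 scale with the replicate block. With 19 genes called in all, 252 were called without the filter, 241 by the likelihood ratio test, 328 by DESeq2 and 77 with the replicate block, and 0 to 25 without single libraries. Of the 9 genes, Retnla alone was called (1); Retnla, Ear2 and Slc7a2 (3) were called without the filter, by the likelihood ratio test and by DESeq2, Retnla and Ear2 (2) with the replicate block, and 0 to 2 without single libraries. In the IL-4 and IL-13 list, 3 genes were called, and 7, 9, 9 and 5 under the same alternatives, with 0 to 3 without single libraries. The classical list had none called, and 4, 3, 3 and 1. The arginine list had none called, and 1 by DESeq2. The replicate numbers do not pair the libraries: same-numbered libraries deviated with a correlation of -0.0488, -0.0224 and -0.0218, so that the paired fit is an alternative only.

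Scaling by the summed counts of 10 macrophage markers was added after seeing the data. It moved the median log2 fold change of all tested genes to -0.87 from 0.02, and left 1 gene called in all, 0 of the 9 and 0 of the IL-4 and IL-13 list. Values are therefore read against that median: Retnla was at 2.89, Ear2 at 4.08, Retnlg at 1.44 and Il4ra at -1.53. Chil3, Nos2 and Ass1 were at 0 in at least 1 library of each group and Odc1 in 2 Ptgs-competent libraries. Libraries of similar depth differed: Ptgs-competent replicates 1 and 2 had 6619148 and 6128346 counts, of which Odc1 had 123 and 0.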

Other observations

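Several transcripts outside the naming rule, named here after their values were seen, were at 0 in the 3 Ptgs-competent libraries and present in the 3 Ptgs-deficient libraries, as Slc7a2 was. The chemokine Ccl24 measured 40.9, 40.8 and 82.8 CPM, the chemokine Ccl17 24.4, 34.3 and 30.8 CPM and the transcription factor Irf4 15.0, 37.1 and 32.1 CPM in the Ptgs-deficient libraries. All 3 passed the filter on low counts through the Ptgs-deficient libraries alone, and none was called by the edgeR quasi-likelihood test (adjusted p = 0.0968, 0.246 and 0.267). The pattern was not particular to the IL-4 and IL-13 list. In the classical list it was also that of Cd38, of Il6 (39, 246 and 8 counts) and of Cxcl9 (5, 14 and 86 counts). Il6 and Cxcl9 did not pass the filter and were not tested. Tgm2, a transglutaminase also placed among IL-4 and IL-13 response genes, had the opposite direction, at 948, 1020.5 and 456.5 CPM against 474, 167 and 340.0 CPM (log2 fold change -1.31, adjusted p = 0.375), and its groups overlapped.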
